A study of Mus musculus with 16 samples.

Results

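The blood cell miRNAs examined here were the 6 mature mouse miRNAs mmu-miR-142a-3p, mmu-miR-142a-5p, mmu-miR-150-5p, mmu-miR-223-3p, mmu-miR-342-3p and mmu-miR-342-5p, out of 1881 mouse miRNAs on the array. They were found by their names in the array files, and the list was selected on earlier results of these same arrays. All 6 were on every array, 5 were detected on at least 1 array, and 5 entered the tests. Because the list was chosen by its measured values, its group differences are given as a description with standard errors and without p-values.

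The arrays held kidney cortex RNA of 16 male mice, 1 mouse per array and 4 per group. SAMR1-10wk and SAMR1-50wk were 10- and 50-week-old mice of the senescence-accelerated resistant line, and SAMP1-10wk and SAMP1-50wk were mice of the same ages of the senescence-accelerated prone line. The labels name no drug, transgene or surgery for any group. The methods describe flushing of kidneys with saline for histology and in other experiments, and for the arrayed cortex the sources used here do not state it. Each line is 1 strain, so that a difference between SAMP1 and SAMR1 cannot be told apart from other genetic differences between them. Young and old mice were hybridized on separate slides, 1 slide for each age, and the effects of age and of slide cannot be told apart. On both slides SAMP1 lay in row 1 and SAMR1 in row 2, which likewise ties strain to row.

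A miRNA guides a silencing complex to mRNAs that pair with its seed, the bases near its 5′ end. White blood cells carry miRNAs that kidney epithelium hardly makes. The miRNA-142 precursor is processed in nearly all cells of the blood-forming lineage and gives a mature miRNA from each of its arms. MiRNA-223 is typical of granulocytes and monocytes, miRNA-150 of mature B and T lymphocytes, and miRNA-342 of lymphoid cells among others. In whole tissue, fewer cells of a type and less of the miRNA per cell cannot be told apart.

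The mature sequences are shown because the array measures each arm by itself and because they show that the members are separate species and not versions of one another. Sequences of 5 of the 6 members were matched in RefSeq (GRCm38.p6). The seed, bases 2 to 8, is in capitals, and the 5 sequences held 5 different seeds.
miRNA-142a-3p: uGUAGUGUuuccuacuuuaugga
miRNA-142a-5p: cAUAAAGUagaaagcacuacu
miRNA-223-3p: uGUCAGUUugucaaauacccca
miRNA-342-3p: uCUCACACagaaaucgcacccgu
miRNA-342-5p: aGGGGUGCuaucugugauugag

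Both arms of miRNA-142a came from Mir142 on chromosome 11, with the 5p arm at chr11:87756867-87756887 and the 3p arm at chr11:87756903-87756925, both on the + strand. The gene Mir142b overlaps Mir142 there. MiRNA-223-3p lay at chrX:96242884-96242905 on the + strand, inside the span of F630028O10Rik. MiRNA-342-5p at chr12:108658638-108658659 and miRNA-342-3p at chr12:108658680-108658702, both on the + strand, lay inside the span of Evl, a gene for an actin regulator. These positions are those of RefSeq on GRCm38.p6.

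Values below are scaled signals, that is, the total gene signal of a miRNA divided by the 90th percentile of its own array, so that a scaled signal of 1 is as bright as that percentile. Group means, SDs and differences are on the log2 scale of the scaled signal. A miRNA was called when its adjusted p in limma was under 0.05 and its fold change over 2, and 381 miRNAs were tested. Between 352 and 445 miRNAs were detected per array. SAMP1-50wk animal 2 had both the most detected miRNAs, 445, and the highest 90th percentile, 22.7 against 8.76 to 17.3 elsewhere, and results that rest on it are given with and without it.

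Both arms of miRNA-142a, the pan-leukocyte miRNA, were brightest in SAMP1-50wk and nearly level in the other 3 groups. The scaled signal of miRNA-142a-3p was 17.3, 24.9, 19.1 and 22.6 in SAMP1-50wk animals 1, 2, 4 and 11. It was 7.69, 7.34, 6.44 and 6.97 in SAMR1-50wk animals 2, 6, 9 and 12. At 10 weeks it was 6.83, 8.81, 5.37 and 5.75 in SAMR1 animals 1, 4, 5 and 7, and 7.21, 6.40, 9.60 and 9.14 in SAMP1 animals 3, 4, 5 and 6. The lowest SAMP1-50wk array lay above the highest of the other 12 arrays, while the other 3 groups overlapped one another. On the log2 scale the group means were 4.38 ± 0.23 in SAMP1-50wk, 3.00 ± 0.28 in SAMP1-10wk, 2.83 ± 0.11 in SAMR1-50wk and 2.71 ± 0.32 in SAMR1-10wk (SD, n = 4).

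The scaled signal of miRNA-142a-5p was 2.60, 3.60, 2.42 and 3.25 in SAMP1-50wk animals 1, 2, 4 and 11, against 1.00, 0.966, 0.788 and 0.897 in SAMR1-50wk animals 2, 6, 9 and 12. At 10 weeks it was 0.900, 1.16, 0.613 and 0.762 in SAMR1 animals 1, 4, 5 and 7, and 0.917, 0.890, 1.26 and 1.20 in SAMP1 animals 3, 4, 5 and 6. SAMP1-50wk again stood above the other 12 arrays without overlap, and the other 3 groups overlapped. Its log2 group means were 1.55 ± 0.27 in SAMP1-50wk, 0.08 ± 0.26 in SAMP1-10wk, -0.14 ± 0.15 in SAMR1-50wk and -0.26 ± 0.39 in SAMR1-10wk (SD, n = 4).

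The arms moved together from array to array. SAMR1-10wk animal 4 was the brightest of its group in both arms and animal 5 the dimmest, and in SAMP1-50wk animal 2 was the brightest in both. Over the 16 arrays their log2 signals had a Pearson r of 0.996, and 0.958 after the group means were taken out. These values share a precursor and an array. The log2 signal of the 3p arm minus that of the 5p arm had an SD of 0.096 over the 16 arrays, against 0.73 and 0.79 for the arms themselves.

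At 50 weeks, SAMP1 exceeded SAMR1 by 1.55 on the log2 scale for miRNA-142a-3p (SE 0.17, 2.93-fold) and by 1.69 for miRNA-142a-5p (SE 0.19, 3.22-fold). At 10 weeks the same differences were 0.28 (SE 0.17) and 0.33 (SE 0.19), with overlapping groups. From 10 to 50 weeks the difference was 1.38 (SE 0.17) and 1.48 (SE 0.19) in SAMP1, and 0.11 (SE 0.17) and 0.12 (SE 0.19) in SAMR1. The strain difference at 50 weeks minus that at 10 weeks was 1.27 (SE 0.24) for the 3p arm and 1.36 (SE 0.27) for the 5p arm. Without SAMP1-50wk animal 2 the 50-week strain differences were 1.46 (SE 0.18) and 1.59 (SE 0.20). The comparisons with SAMP1-50wk share its 4 arrays, so that they are not independent of one another.

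MiRNA-223-3p, the myeloid member, was nearly level in 3 groups and spread widely in SAMP1-50wk. Its scaled signal there was 3.99, 7.60, 5.92 and 5.22 in animals 1, 2, 4 and 11. In SAMR1-50wk it was 4.29, 4.07, 4.04 and 4.31 in animals 2, 6, 9 and 12. At 10 weeks it was 3.65, 3.92, 4.05 and 3.64 in SAMR1 animals 1, 4, 5 and 7, and 3.88, 3.53, 3.86 and 3.89 in SAMP1 animals 3, 4, 5 and 6. SAMP1-50wk animal 1 lay inside the range of the SAMR1 arrays, whereas the other 3 arrays of its group lay above all of the remaining arrays.

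The log2 mean of miRNA-223-3p was 2.47 ± 0.39 in SAMP1-50wk, 2.06 ± 0.05 in SAMR1-50wk, 1.93 ± 0.08 in SAMR1-10wk and 1.92 ± 0.07 in SAMP1-10wk (SD, n = 4). SAMP1-50wk exceeded SAMR1-50wk by 0.40 (SE 0.14, 1.32-fold) and SAMP1-10wk by 0.55 (SE 0.14, 1.46-fold). Without animal 2 these were 0.25 (SE 0.10) and 0.39 (SE 0.10). The strain difference at 10 weeks was -0.01 (SE 0.14), and that between the ages in SAMR1 was 0.13 (SE 0.14). The age ranges in SAMP1 did not overlap, the highest SAMP1-10wk array being at 3.89 and the lowest SAMP1-50wk array at 3.99.

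MiRNA-150-5p, the lymphocyte miRNA, had higher group means in SAMP1 than in SAMR1 at both ages, with overlapping strains at 10 weeks and 1 old SAMP1 animal apart. Its scaled signal in SAMP1-50wk was 1.22, 0.670, 1.18 and 1.16 in animals 1, 2, 4 and 11. In SAMR1-50wk it was 0.487, 0.521, 0.450 and 0.534 in animals 2, 6, 9 and 12. At 10 weeks it was 0.547, 0.776, 0.541 and 0.551 in SAMR1 animals 1, 4, 5 and 7, and 0.722, 0.672, 0.945 and 0.926 in SAMP1 animals 3, 4, 5 and 6. The 50-week strains did not overlap, and the 10-week strains overlapped through SAMR1 animal 4. SAMP1-50wk animal 2, the brightest of its group for the other 4 detected members, was the dimmest for miRNA-150-5p.

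The log2 means of miRNA-150-5p were 0.04 ± 0.41 in SAMP1-50wk, -0.31 ± 0.25 in SAMP1-10wk, -0.75 ± 0.25 in SAMR1-10wk and -1.01 ± 0.11 in SAMR1-50wk (SD, n = 4). Neighbours in this order overlapped except the SAMR1 groups, of which the 50-week one lay lower on every array. The strain difference was 1.05 at 50 weeks (SE 0.19, 2.07-fold) and 0.44 at 10 weeks (SE 0.19), and 1.25 at 50 weeks (SE 0.14) without animal 2. The age difference was 0.35 in SAMP1 (SE 0.19) and -0.26 in SAMR1 (SE 0.19). The 50-week difference was close to the fold limit, at 1.96-fold without SAMP1-50wk animal 1, 1.98-fold without animal 4 and 1.98-fold without animal 11, each under the limit.

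MiRNA-342-3p, the other lymphoid miRNA, was called detected on all 8 SAMP1 arrays and on none of the 8 SAMR1 arrays. Most of these calls lay near the limit of detection. Of its 30 spots, 1, 0, 8 and 6 were well above background in SAMP1-10wk animals 3, 4, 5 and 6. In SAMP1-50wk animals 1, 2, 4 and 11 the number was 7, 30, 7 and 9. SAMR1-10wk animal 1 had 1 such spot and the other SAMR1 arrays had 0. The scaled signal of miRNA-342-3p was 0.422, 1.31, 0.488 and 0.499 in SAMP1-50wk animals 1, 2, 4 and 11, and 0.224, 0.202, 0.437 and 0.467 in SAMP1-10wk animals 3, 4, 5 and 6. SAMP1-50wk animal 2 was far brighter than the other 7 SAMP1 arrays, and the SAMP1 ages overlapped. On the SAMR1 arrays the miRNA entered at the floor, the lowest detected signal of the array, with log2 means of -3.25 in SAMR1-10wk and -3.29 in SAMR1-50wk. Those values are limits and have no order. No array detected the opposite arm, miRNA-342-5p, with none of its 4 probes above a signal of 0.168, so that no comparison of it was possible.

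**Figure D1:**
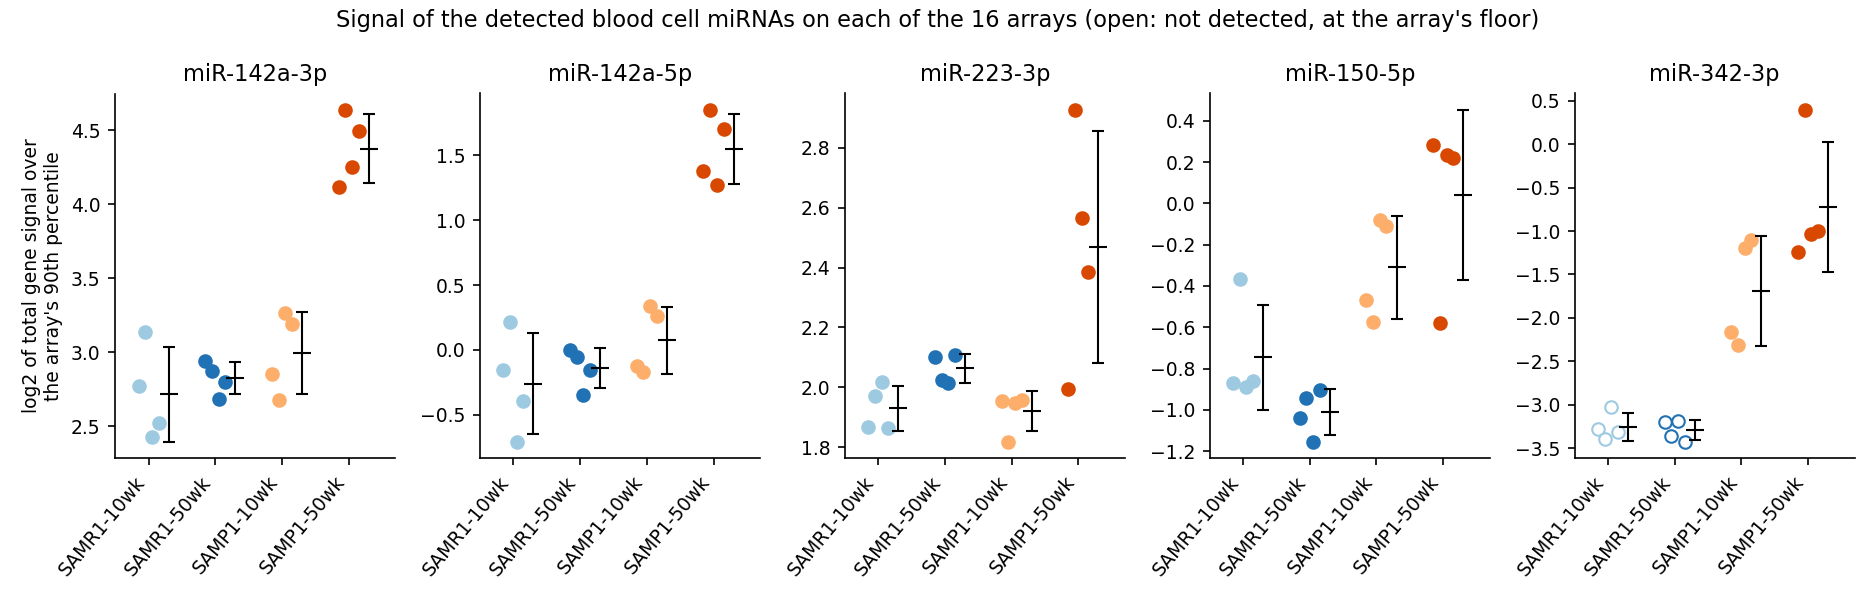
Log2 of the scaled signal (vertical axis, 1 scale per panel) of the 5 detected members on each of the 16 arrays, by group; bars give the mean ± SD of 4 arrays, and open circles are arrays at the floor. Both arms of miRNA-142a stand apart in SAMP1-50wk, whereas miRNA-223-3p is spread there, miRNA-342-3p has 1 bright array and miRNA-150-5p 1 dim array.

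The total gene signal added up a different number of probes on different arrays, and this touched both lymphoid members among others. Each of miRNA-150-5p and miRNA-342-3p had 2 probes of 15 spots each. For miRNA-150-5p the total held both probes on 7 arrays and 1 probe on 9 arrays. It held both on all 4 SAMP1-50wk arrays, on 2 SAMP1-10wk arrays, on 1 SAMR1-10wk array, animal 4, and on 0 SAMR1-50wk arrays. For miRNA-342-3p it held both probes on the 4 SAMP1-50wk arrays and on SAMP1-10wk animals 5 and 6, and 1 probe on SAMP1-10wk animals 3 and 4. Both probes were counted for the arms of miRNA-142a and for miRNA-223-3p on all 16 arrays. Over all miRNAs, 24.8% of 6136 detected values were more than 1% below the sum of their probes.

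The probes of miRNA-342-3p are shown because its detection rests on them. They are written as on the array, 5′ to 3′, with the bases that pair with the seed in capitals.
probe 1: acgggtgcgatttctG
probe 2: acgggtgcgatttctGT
Probe 1 pairs with bases 8 to 23 of the miRNA and probe 2 with bases 7 to 23, so that they reach 1 and 2 of the 7 seed bases. By contrast, the probes of miRNA-142a-3p pair with bases 1 to 23 and 2 to 23.

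On the SAMR1 arrays these probes of miRNA-342-3p gave signals above 0, from 1.07 to 1.61 for probe 1 and from 1.21 to 1.95 for probe 2, although the deposited total was 0.1. On the SAMP1 arrays probe 1 gave 2.20 to 13.0 and probe 2 gave 2.69 to 16.7. The sum of both probes, scaled by its own 90th percentile, was 0.422, 1.31, 0.488 and 0.499 in SAMP1-50wk animals 1, 2, 4 and 11. It was 0.406, 0.363, 0.436 and 0.467 in SAMP1-10wk animals 3, 4, 5 and 6. It lay between 0.291 and 0.304 in SAMR1-10wk and between 0.238 and 0.301 in SAMR1-50wk. Summed in this way, every SAMP1 array still lay above every SAMR1 array of its age, but the gap at 10 weeks was narrow.

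By the floor, the difference of miRNA-342-3p between the strains was 2.56 at 50 weeks (SE 0.33) and 1.56 at 10 weeks (SE 0.33). These sizes are set by the floor, which lay below the probes' own sum. Without SAMP1-50wk animal 2 the 50-week difference was 2.19 (SE 0.25). By summed probes, with the SAMR1 arrays at probe signals left out of the total, the estimated fold was 2.22 at 50 weeks (log2 difference 1.15, SE 0.25) and 1.39 at 10 weeks (0.48, SE 0.25). Animal 2 carried much of the former, which was 1.72-fold without it (0.78, SE 0.09). The 10-week call at a fold over 2 was thus lost with summed probes, and the 50-week call with summed probes and without animal 2. The age difference in SAMP1 was 0.97 by total gene signal (SE 0.33), 0.54 by summed probes (SE 0.25), 0.60 by total gene signal without animal 2 (SE 0.25), and 0.17 by summed probes without animal 2 (SE 0.09).

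By summed probes the strain difference of miRNA-150-5p at 50 weeks was 0.70 (SE 0.14, 1.63-fold), and 0.91 without animal 2 (SE 0.06, 1.88-fold), both under the fold limit. The summed scaled signal was 1.22, 0.670, 1.18 and 1.16 in SAMP1-50wk animals 1, 2, 4 and 11 and 0.605, 0.656, 0.581 and 0.686 in SAMR1-50wk animals 2, 6, 9 and 12, so that animal 2 now fell among the SAMR1 arrays. At 10 weeks the groups came apart, with 0.859 to 0.943 in SAMP1 and 0.699 to 0.776 in SAMR1, a log2 difference of 0.31 (SE 0.14, 1.24-fold). The SAMR1-10wk animal 4, which stood out by total gene signal, lay at 0.776 against 0.699 to 0.745 in the other 3 arrays. Single probes gave 50-week log2 differences of 0.86 and 0.66. For both arms of miRNA-142a and for miRNA-223-3p the values by summed probes and by total gene signal differed by at most 0.01 in each of the 5 comparisons.

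**Figure D2:**
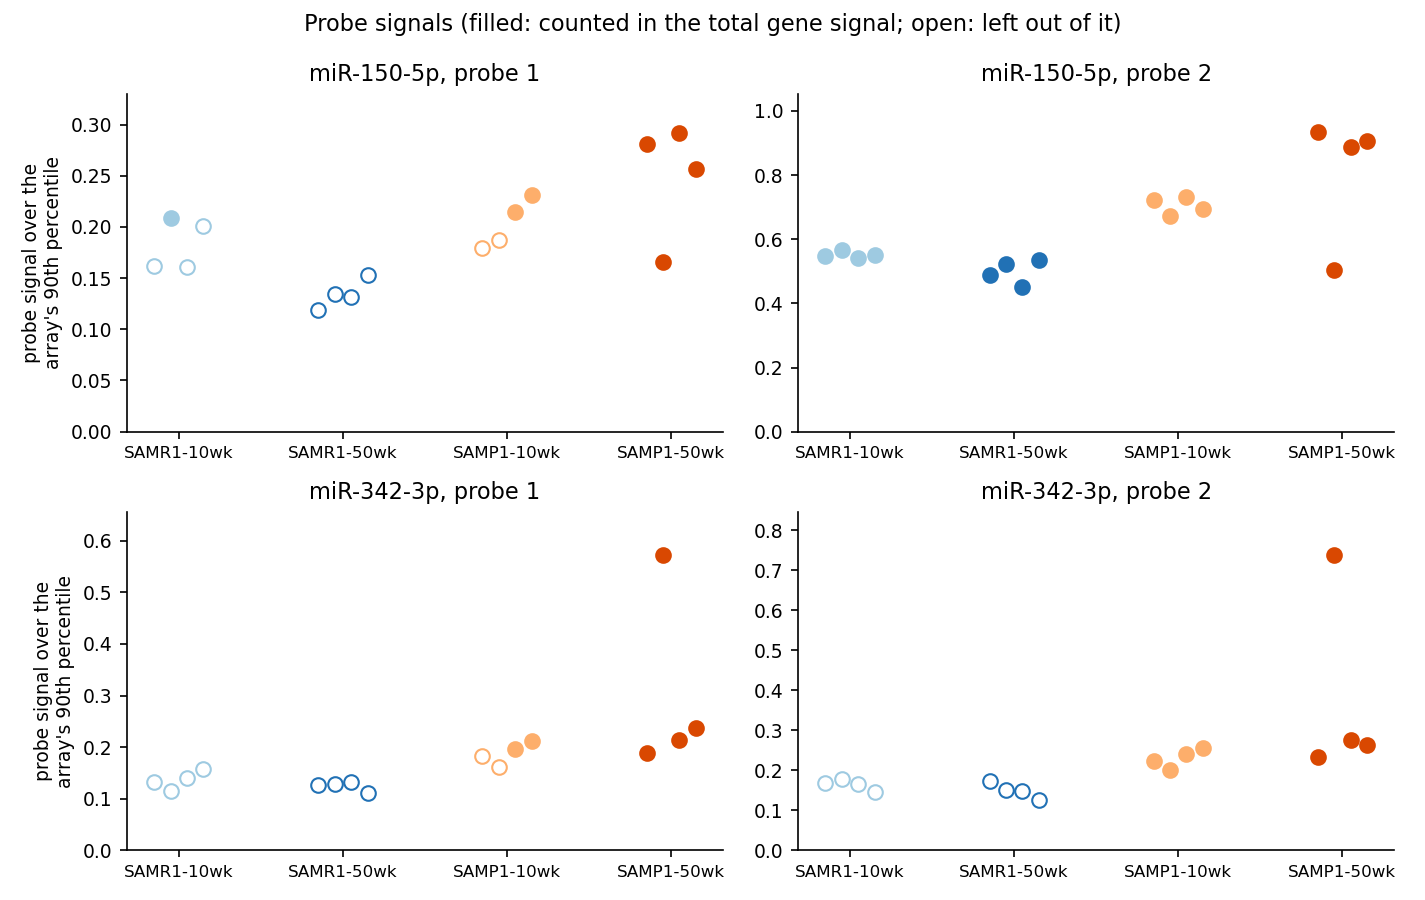
Signal of each probe of miRNA-150-5p (top) and miRNA-342-3p (bottom) divided by the array's 90th percentile, 1 circle per array and 4 arrays per group; filled circles were counted in the total gene signal and open circles were left out. The second probe of miRNA-150-5p was counted everywhere, the first on 7 of 16 arrays, and the open circles of miRNA-342-3p lie well above 0.

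Set against all 381 miRNAs tested, the members' counts read as follows, and nothing is drawn from them because the list was chosen by these contrasts. In SAMP1-50wk over SAMR1-50wk, 4 of 5 members were called higher (both arms of miRNA-142a, miRNA-150-5p and miRNA-342-3p), where 4.46% of all miRNAs were, and 4 did not overlap, where 4.2% of all were higher on every array. In SAMP1-10wk over SAMR1-10wk, 1 of 5 was called, miRNA-342-3p, beside 1.31% of all, and 1 did not overlap beside 16% of all. MiRNA-342-3p entered the tests only through the SAMP1 groups and stood at the floor on every SAMR1 array. Its lack of overlap at both ages was thus largely fixed in advance, and the size of its fold was set by the floor. In SAMP1-50wk over SAMP1-10wk, 2 of 5 were called, both arms of miRNA-142a, beside 1.84% of all, and 3 did not overlap beside 7.61% of all. For the interaction of strain and age, the same arms, 2 of 5, were called beside 1.84% of all.

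In SAMR1-50wk over SAMR1-10wk, limma called 0 of 5 members higher beside 0.787% of all miRNAs, with 0 members at an unadjusted p under 0.05, beside 21.3% of all, and 0 by the methods' two-way analysis. None was higher on every array, beside 14.7% of all, and 1, miRNA-150-5p, was lower on every array, beside 3.15% of all. The median difference over the 322 miRNAs that every array detected was itself displaced in some comparisons, by -0.22 on the log2 scale in SAMP1-50wk over SAMR1-50wk. Relative to it the 50-week strain differences were 1.77 and 1.91 for miRNA-142a-3p and miRNA-142a-5p, 0.62 for miRNA-223-3p, 1.27 for miRNA-150-5p and 2.78 for miRNA-342-3p. The median displacement was 0.02 at 10 weeks, 0.08 between the ages in SAMR1, -0.18 between the ages in SAMP1 and -0.26 for the interaction.

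**Figure D3:**
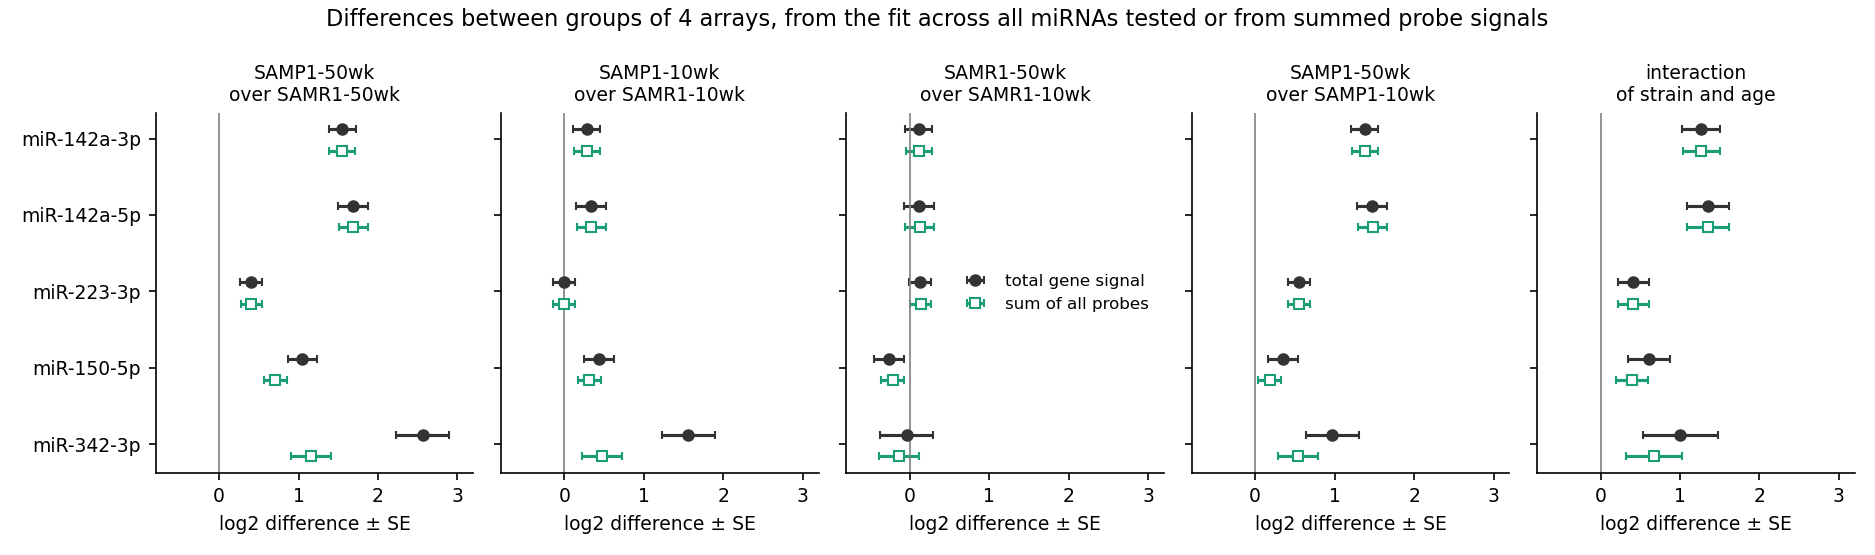
Log2 differences of the 5 detected members (rows) in the 5 comparisons (panels), with bars of 1 SE on the horizontal axis; black circles are from the total gene signal and open squares from the sum of all probes. The marks coincide for miRNA-142a and miRNA-223-3p and come apart for miRNA-150-5p and most of all for miRNA-342-3p, as for its 2.56 against 1.15 in SAMP1-50wk over SAMR1-50wk.

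Red blood cell miRNAs moved with some of these values. MiRNA-451a and miRNA-144-3p, made during red cell formation, were the 2 miRNAs behind the 0.525% of all called lower in SAMR1-50wk than in SAMR1-10wk. The log2 difference of miRNA-451a was -3.22 there (SE 0.91, limma adjusted p = 0.037), 4.02 in SAMP1-50wk over SAMR1-50wk (SE 0.91, limma adjusted p = 0.0034) and 5.44 in the interaction (SE 1.28, limma adjusted p = 0.0086). MiRNA-144-3p was called in the same comparisons and directions, but no SAMR1-50wk array detected it, so that the size of its differences is set by the floor. The p-values of this and the following lists are adjusted over all 381 miRNAs, and since the lists were made with earlier results of these arrays known, they are no independent support. The summed scaled signal of the 4 red cell miRNAs on the array ranged from 11.9 to 152 in SAMR1-10wk, from 3.21 to 9.05 in SAMR1-50wk, from 4.99 to 65.5 in SAMP1-10wk and from 26.8 to 164 in SAMP1-50wk. Thus the young groups varied over a wide range by themselves.

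Within groups miRNA-451a and some members moved together in part, since SAMP1-10wk animals 5 and 6, with 29.8 and 61.9 for miRNA-451a against 4.99 and 7.27 in animals 3 and 4, were also the brighter ones for both arms of miRNA-142a and for miRNA-150-5p. For the latter these were the 2 arrays of the group whose total held both probes, and by summed probes they lay at 0.943 and 0.926 against 0.899 and 0.859. With group means taken out, the Pearson r with miRNA-451a over 16 arrays was 0.62 for miRNA-142a-3p, 0.69 for miRNA-142a-5p, 0.55 for miRNA-150-5p and -0.24 for miRNA-223-3p, on values that share each array's scaling. By summed probes it was 0.25 for miRNA-150-5p, and 0.62, 0.69 and -0.24 for the other 3. The part of retained blood in the differences was not tested.

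**Figure D4:**
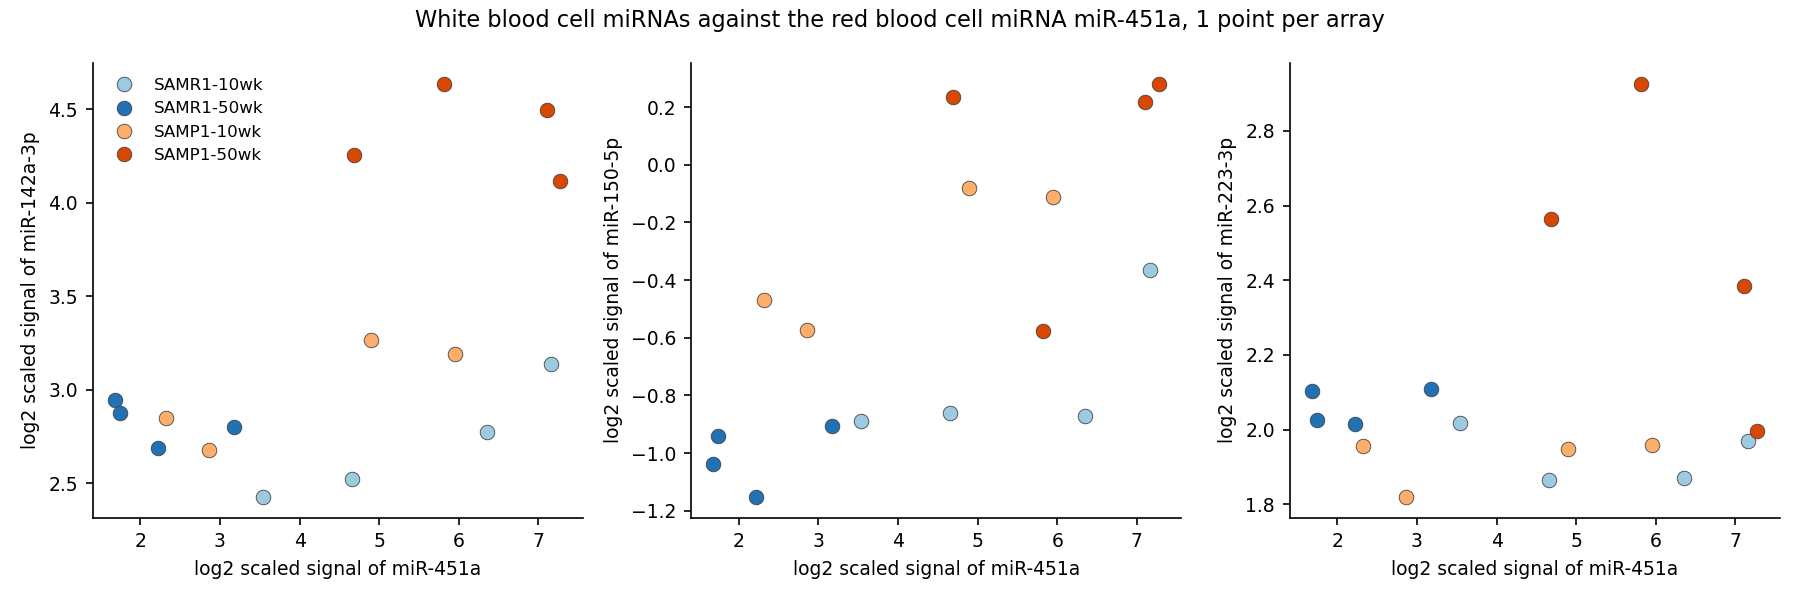
Log2 scaled signal of miRNA-142a-3p, miRNA-150-5p and miRNA-223-3p (vertical axes) against that of miRNA-451a (horizontal axes), 1 point per array and 4 per group. SAMP1-50wk lies above the other groups for miRNA-142a-3p, its dimmest array being at 4.12 and the brightest of the rest at 3.26.

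Of 19 other miRNAs known for white blood cells or their activation, 14 were detected on at least 1 array and 13 were tested. In SAMP1-50wk over SAMR1-50wk, 2 of 13 were called higher beside the 4.46% of all miRNAs, and the median log2 difference of the 13 was 0.02 beside -0.21 over all 381. MiRNA-155-5p, induced in activated lymphocytes and macrophages, was 1.43 higher (SE 0.21, limma adjusted p = 3.2e-04) and miRNA-132-3p, induced in inflammation and in nerve cells, was 1.56 higher (SE 0.38, limma adjusted p = 0.0047). The same 2 were called in the interaction, at 1.32 (SE 0.30, limma adjusted p = 0.0078) and 1.53 (SE 0.53, limma adjusted p = 0.047). By summed probes miRNA-132-3p was not called in either comparison, at 0.69 (SE 0.22, limma adjusted p = 0.016) and 0.64 (SE 0.31, limma adjusted p = 0.12). MiRNA-155-5p remained called in both, at 1.20 (SE 0.17, limma adjusted p = 1.7e-04) and 1.09 (SE 0.25, limma adjusted p = 0.0055), but fell under the fold limit when SAMP1-50wk animal 2 was also left out, at 0.95 (SE 0.07) and 0.84 (SE 0.10).

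The 50-week strain difference of miRNA-155-5p went with low values in old SAMR1. Its scaled signal was 0.62, 0.60, 0.38 and 0.40 in SAMR1-50wk animals 2, 6, 9 and 12, and 0.93, 0.89, 1.03 and 0.99 in SAMR1-10wk animals 1, 4, 5 and 7. In SAMP1 it was 0.97, 1.00, 1.12 and 1.06 at 10 weeks and 1.09, 2.20, 1.13 and 1.07 at 50 weeks, with animal 2 at 2.20. The total gene signal left out probe signal on SAMR1-50wk animals 9 and 12, where the summed probes gave 0.52 and 0.55 against 0.62 and 0.60 in animals 2 and 6. The age difference was -0.98 in SAMR1 (SE 0.21, limma adjusted p = 0.010, just under the fold limit), -0.75 there by summed probes (SE 0.17, limma adjusted p = 0.013), and 0.34 in SAMP1 (SE 0.21, limma adjusted p = 0.23). Both arms of miRNA-142a had the other pattern, being level between the ages in SAMR1 and higher in old SAMP1.

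MiRNA-132-3p was dim, with scaled signals of 0.22 to 0.36 on the 3 SAMR1-50wk arrays that detected it and of 0.53 to 0.84 in SAMP1-50wk. By summed probes these 3 SAMR1-50wk arrays lay at 0.37 to 0.53, and their range overlapped that of SAMP1-50wk. The brightest of the list was miRNA-21a-5p, which is raised in injured kidney, with 96.7, 251, 110 and 127 in SAMP1-50wk animals 1, 2, 4 and 11 and 98.0 to 125 in SAMR1-50wk. Its strain difference at 50 weeks was 0.28 (SE 0.21, limma adjusted p = 0.29). MiRNA-511-3p, from a macrophage receptor gene, was detected on 3 arrays, SAMP1-50wk animals 2, 4 and 11, with scaled signals of 0.95, 0.20 and 0.23. MiRNA-155-3p, miRNA-147-3p, miRNA-511-5p and the opposite arms miRNA-150-3p and miRNA-223-5p were detected on no array.

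For the other 3 comparisons limma called 0 of the 13. In SAMP1-10wk over SAMR1-10wk 3 of 13 had an unadjusted p under 0.05, in SAMR1-50wk over SAMR1-10wk 2 of 13, and in SAMP1-50wk over SAMP1-10wk 5 of 13, beside 19.9%, 21.3% and 44.1% of all 381, and the methods' two-way analysis called 0 in each. The markers of resident kidney cells were present on every array. The summed scaled signal of 6 epithelial miRNAs was 285 to 304 in SAMR1-10wk, 336 to 369 in SAMP1-10wk, 308 to 356 in SAMR1-50wk and 295 to 327 in SAMP1-50wk, so that the strains did not overlap at 10 weeks. None of the 6 passed the fold limit in any comparison. By adjusted p alone, 2 of the 6 were higher in SAMP1-10wk over SAMR1-10wk. These were miRNA-192-5p by 0.48 (SE 0.09, limma adjusted p = 0.0041) and miRNA-194-5p by 0.46 (SE 0.07, limma adjusted p = 6.2e-04). In the same way 2 were lower in SAMP1-50wk over SAMR1-50wk, and 5 had a negative interaction. The share of all 381 by adjusted p alone is not given here. At an unadjusted p under 0.05 it was 19.9%, 55.9% and 38.8% in these comparisons, in either direction. The median over the 322 miRNAs detected on every array was itself -0.22 at 50 weeks, -0.26 in the interaction and -0.18 between the ages in SAMP1. The part of these marker shifts and the following ones in the members' values was not tested. In SAMP1-50wk over SAMP1-10wk, miRNA-10a-5p and miRNA-10b-5p of the 6 differed by -0.28 and -0.27 (limma adjusted p = 0.015 and 0.026). Both endothelial miRNAs, miRNA-126a-3p and miRNA-126a-5p, had a negative interaction, at -0.29 and -0.37 (limma adjusted p = 0.0497 and 0.048), beside that median of -0.26. MiRNA-126a-5p was lower in SAMP1-50wk than in SAMP1-10wk by 0.29 (limma adjusted p = 0.031), beside the median of -0.18. The sum of the 2 endothelial miRNAs lay between 77.9 and 108 on all arrays, and that of 5 miRNAs of smooth muscle and fibroblasts between 30.7 and 41.9. Of these 5, miRNA-199a-3p, miRNA-199a-5p and miRNA-214-3p were higher in SAMP1-50wk than in SAMP1-10wk by 0.38, 0.37 and 0.41 (limma adjusted p = 0.0067, 0.0055 and 0.0026), and miRNA-143-3p and miRNA-145a-5p differed by -0.33 and -0.42 (limma adjusted p = 0.020 and 0.0012). The first 3 were also higher in SAMR1-50wk than in SAMR1-10wk, by 0.47, 0.32 and 0.34 (limma adjusted p = 0.0070, 0.025 and 0.016). The brightest of each were miRNA-30a-5p, miRNA-126a-3p and miRNA-199a-3p, with scaled signals of 96.9 to 130, 75.4 to 104 and 12.3 to 20.7. Their 50-week strain differences on the log2 scale were -0.27 (SE 0.06, limma adjusted p = 0.0035), -0.23 (SE 0.07, limma adjusted p = 0.019) and -0.03 (SE 0.09, limma adjusted p = 0.82), each smaller than the fold limit. Relative to the median of -0.22 over all miRNAs detected on every array they were -0.06, -0.02 and 0.19. As measured, the sign differed within the epithelial and smooth muscle lists, with 0.05 (SE 0.09) for miRNA-192-5p, 0.04 (SE 0.07) for miRNA-194-5p and 0.16 (SE 0.10) for miRNA-143-3p of smooth muscle. As summed scaled signals the 6 members together ranged from 10.6 to 16.1 over the other 3 groups and from 25.6 to 38.1 in SAMP1-50wk. Most of the latter was miRNA-142a-3p alone, at 17.3 to 24.9, while miRNA-223-3p overlapped between the strains and miRNA-342-5p was never detected.

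SAMP1-50wk animal 2 was the brightest of its group for 4 of the 5 detected members and for 10 of the 13 other white blood cell miRNAs, beside 113 of the 322 miRNAs detected on all arrays, for 143 of which it was the dimmest. It was also the brightest for 2 of 2 endothelial miRNAs, 4 of 5 of smooth muscle and fibroblasts and 3 of 6 epithelial ones. On the log2 scale it lay above the mean of the other 3 arrays by 1.49 for miRNA-342-3p, 0.61 for miRNA-223-3p, 0.35 for miRNA-142a-3p and 0.40 for miRNA-142a-5p. It lay above it by 1.18 for miRNA-21a-5p, 1.14 for miRNA-146b-5p, 1.00 for miRNA-155-5p and 0.81 for miRNA-146a-5p, and at -0.60 relative to it for miRNA-212-3p. For miRNA-150-5p it lay at -0.82 relative to that mean. The lymphoid members thus went opposite ways in this animal. For the red cell miRNA-451a it lay at -0.54, and whether scaling to its high 90th percentile played a part was not tested.

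**Figure D5:**
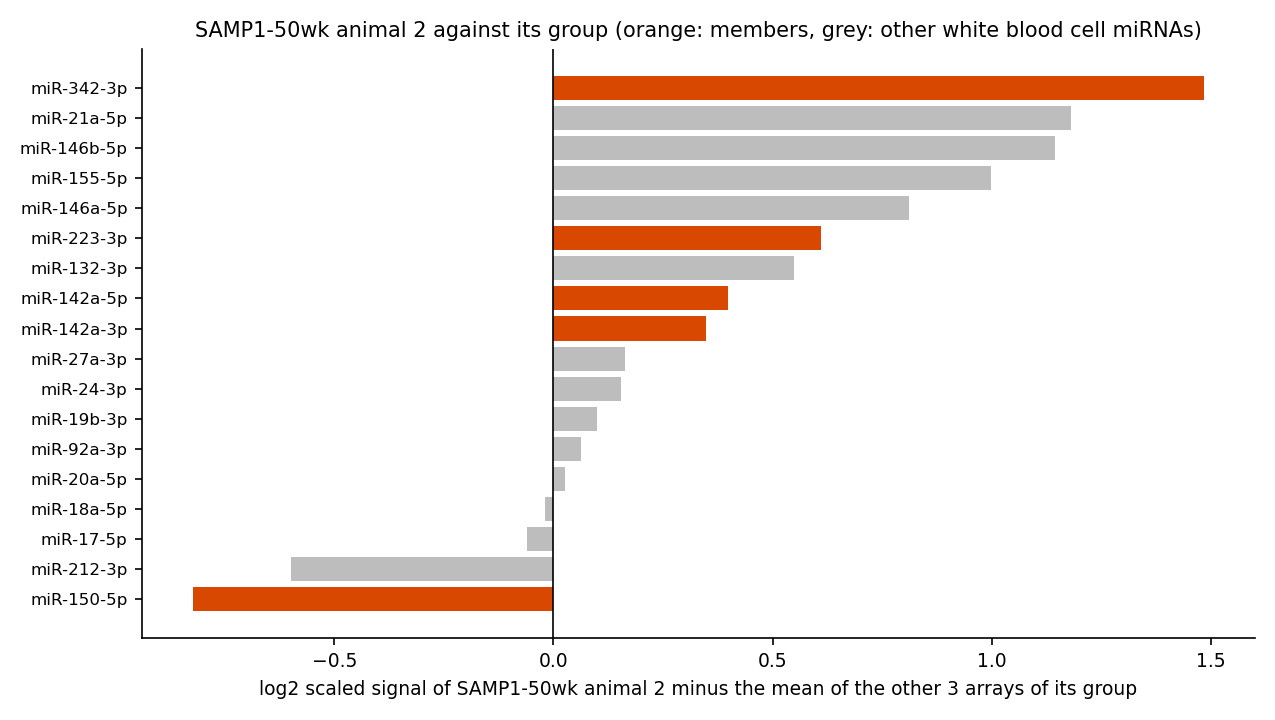
Log2 scaled signal of SAMP1-50wk animal 2 minus the mean of the other 3 arrays of its group (horizontal axis) for the 5 detected members (orange) and 13 other white blood cell miRNAs (grey). MiRNA-342-3p, at 1.49, and miRNA-150-5p, at -0.82, lie at the opposite ends.

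The miRNAs most alike to each member were ranked by the Pearson r of the log2 scaled signal over the 16 arrays, among the 318 miRNAs detected on all of them that are no members, as a description. For miRNA-142a-3p these were miRNA-1949 (r = 0.74), miRNA-34a-5p (0.72), a target of p53, and miRNA-1895 (0.65). For miRNA-142a-5p they were miRNA-1949 (0.74), miRNA-34a-5p (0.71) and miRNA-6973b-5p (0.66). Without SAMP1-50wk animal 2 these were 0.62, 0.69 and 0.48 for the 3p arm and 0.63, 0.68 and 0.48 for the 5p arm, so that miRNA-34a-5p came before miRNA-1949. All were below the 0.996 between the arms. With group means taken out, r over the 16 arrays was 0.52, 0.47 and -0.003 for the 3p arm and 0.54, 0.37 and 0.11 for the 5p arm.

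For miRNA-150-5p the most alike were miRNA-18a-5p (0.78), of the miRNA-17-92 cluster, miRNA-181d-5p (0.70) and miRNA-451a (0.66). With group means taken out these were 0.49, -0.10 and 0.55. Both sets rest on totals that held 1 or 2 probes of miRNA-150-5p, and by summed probes the r with miRNA-451a was 0.56. The totals of miRNA-18a-5p also left out probe signal on some arrays. For miRNA-223-3p the most alike were miRNA-146a-5p (0.89), induced by NF-κB, miRNA-21a-5p (0.84) and miRNA-1895 (0.81). Without SAMP1-50wk animal 2 these were 0.72, 0.57 and 0.63, and with group means taken out 0.92, 0.84 and 0.53. Between miRNA-223-3p and miRNA-150-5p r was 0.27, 0.46 without SAMP1-50wk animal 2, and -0.49 with group means taken out. MiRNA-142a-3p had an r of 0.80 with miRNA-223-3p and of 0.73 with miRNA-150-5p, and without SAMP1-50wk animal 2 of 0.73 and 0.87. All of these values rest on the same 16 arrays and their scaling, and most of the spread of miRNA-142a lies between SAMP1-50wk and the rest.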

How the data were processed

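Kidney cortex RNA of 16 mice carried a Cy3 label on Agilent arrays of 1 colour. The authors deposited scanner output of Agilent Feature Extraction 12.0.3.1, whose intensity values are background-subtracted but not scaled between arrays, with a call of detected or not per miRNA. An undetected total gene signal is deposited as 0.1. The authors also deposited log2 values scaled to the 90th percentile and centred on SAMR1-10wk. The members and lists were chosen with earlier results of these data known.

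Total gene signals were divided by each array's 90th percentile over all 1881 miRNAs, raised to the array's lowest detected signal (0.895 to 1.50 before scaling) and taken to log2. A miRNA was tested if some group detected it on each of its 4 arrays, which left 381, and these were fitted with limma 3.58.1 (R 4.3.3), with 1 mean per group and Benjamini-Hochberg adjustment. Arrays were read with Python 3.11.15 and pandas 2.3.3. Tested on simulated data for SAMP1-50wk over SAMR1-50wk with 381 miRNAs, the fit recovered 93% of log2 changes of 1.5 and 99% of changes of 2. The text names the members, the listed miRNAs that passed the threshold, the brightest of each list and the 3 miRNAs most alike to each member. MiRNA-511-3p, the other markers of resident cells with a value, the undetected miRNAs, and miRNA-146a-5p and miRNA-146b-5p in the account of SAMP1-50wk animal 2 were named after their values were seen. Samples were 1 mouse each, no spot was saturated, and 4 arrays per group limit the precision. The alternatives were other signals, scalings, floors, filters and tests and the omission of each array. Summing all probes, also without SAMP1-50wk animal 2, was added after the data were seen.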

Additional observations from a re-analysis of the deposited data

Results flagged for a closer look

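In groups of 4 arrays, 7 of 68 groups tested, over the members and the other white blood cell miRNAs, had 1 array far from the other 3, where chance gives about 1 in 20. MiRNA-150-5p lay at -0.37 in SAMR1-10wk animal 4 (others -0.89 to -0.86) and at -0.58 in SAMP1-50wk animal 2 (others 0.22 to 0.28). The former array was the only one of its group whose total held both probes. MiRNA-342-3p lay at 0.39 in SAMP1-50wk animal 2 (lowest of the others -1.24), as did miRNA-155-5p at 1.14 (others 0.10 to 0.18). MiRNA-223-3p lay at 1.82 in SAMP1-10wk animal 4 (others 1.95 to 1.96). MiRNA-18a-5p lay at -1.65 in SAMP1-10wk animal 3 (others -0.80 to -0.70), the one array of its group whose total left out probe signal, and miRNA-20a-5p at 3.34 in SAMP1-50wk animal 4 (others 3.40 to 3.40). All are log2 scaled signals.

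The strain difference at 50 weeks minus that at 10 weeks passed the threshold in limma for 4 of these miRNAs, at 1.27 for miRNA-142a-3p, 1.36 for miRNA-142a-5p, 1.32 for miRNA-155-5p and 1.53 for miRNA-132-3p. The first 2 are members chosen with these results known.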

How the results depend on the processing

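Over the alternatives, 824 of 880 differences of members moved by less than the SD between arrays, 56 moved by more and 0 changed sign from a called value. Of the members, 4 were called in SAMP1-50wk over SAMR1-50wk, 1 in SAMP1-10wk over SAMR1-10wk, 2 in SAMP1-50wk over SAMP1-10wk and 2 in the interaction. With normexp background correction these counts were 1, 0, 1 and 1, with miRNA-142a-3p the one that remained. Without scaling they were 5, 1, 3 and 3, with miRNA-223-3p at 1.19 at 50 weeks, miRNA-342-3p between the ages in SAMP1 and miRNA-150-5p in the interaction added. The 10-week count was 0 with the processed signal, with summed probes, with miRNAs detected on all 16 arrays only, and with the methods' two-way analysis after Benjamini-Hochberg adjustment. With summed probes and without SAMP1-50wk animal 2 the 50-week count was 2, both arms of miRNA-142a, the 10-week count 0, and the counts of the other list, below, 0 and 0. By adjusted p alone, 4 members were called between the ages in SAMP1. The count in SAMR1-50wk over SAMR1-10wk was 0 throughout.

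Of the other white blood cell miRNAs, 2 were called at 50 weeks, against 5 without scaling, 1 with the processed signal, with summed probes and with miRNAs detected on all 16 arrays only, and 0 with normexp. In the interaction 2 were called, against 0 without scaling and with normexp. It was 1, miRNA-155-5p, with the 90th or 75th percentile over detected miRNAs, quantile normalization, undetected signals as deposited, the processed signal, summed probes, the authors' processed values, no filter, miRNAs detected on all 16 arrays only, and the adjusted two-way analysis.

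Leaving out 1 array gave 3 to 4 members at 50 weeks, 1 to 1 at 10 weeks, 0 to 0 between the ages in SAMR1, 2 to 3 in SAMP1 and 2 to 2 in the interaction, and 2 to 3 and 1 to 2 of the other list. The member lost at 50 weeks was miRNA-150-5p, without SAMP1-50wk animal 1, 4 or 11, and the one gained between the ages in SAMP1 was miRNA-342-3p, without SAMP1-10wk animal 5 or 6 or SAMP1-50wk animal 1 or 11. In the interaction miRNA-132-3p was lost without SAMR1-10wk animal 4 or 5, SAMR1-50wk animal 2, 6 or 9, SAMP1-10wk animal 3, 5 or 6, or SAMP1-50wk animal 1, 2, 4 or 11. Without SAMP1-50wk animal 1, miRNA-511-3p was called in its place.

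Animal numbers shared between groups belong to different mice. The 7 same-numbered pairs had correlations of their deviations between -0.43 and 0.21, so that the numbers do not pair the samples. With the animal number as a replicate block, 1, 0, 0, 0 and 0 members were called in the 5 comparisons (SAMP1-50wk over SAMR1-50wk first), and 0 and 0 of the other list. The causes of these changes were not tested. MiRNA-342-3p was called detected on no SAMR1 array, so that its strain differences by total gene signal rest on limits.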
